A study of Homo sapiens with 17 samples.

Results

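The genes described here encode secreted and membrane-bound matrix metalloproteinases (MMP1, MMP3, MMP9 and MMP14), their tissue inhibitors (TIMP1 and TIMP2), and the plasminogen activator system (PLAU, PLAT and the receptor PLAUR). They were taken as a named list of 9 symbols, and each matched 1 of the 58870 gene entries of the deposited table. Of the 9, 7 had enough counts to be tested among 15365 genes, while MMP3 and MMP9 did not and are given as counts.

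MDA-MB-231 is a widely used line of triple-negative breast cancer, labelled as mesenchymal and basal B. The cells were given 45 nM TRAIL, a TNF family ligand of death receptors, at a dose the submitters call suboptimal so that live cells would be profiled, and RNA was taken at 0, 1, 3, 6, 12 and 24 h. There were 3 libraries at each time and 2 at 1 h. All 6 groups, 0 h included, carry the label of TRAIL treatment, and 0 libraries came from cells left without TRAIL until a later time, so TRAIL and time in culture cannot be told apart. Everything comes from a single cell line. Nothing in the labels says that the libraries of a time came from separate cultures, so the p-values measure only the spread between these libraries, which may be technical. RNA was taken from whole cultures, so a lower level from fewer expressing cells and one from less RNA per cell cannot be told apart.

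Matrix metalloproteinases are zinc enzymes made as inactive precursors. MMP1 cuts fibrillar collagen, MMP3 and MMP9 are secreted enzymes that cut stromal matrix proteins and denatured or basement membrane collagen, and MMP14 is anchored in the cell membrane, where it cuts collagen and, with TIMP2 as a bridge, activates pro-MMP2. TIMP2 binds the active sites of these enzymes and blocks them, and TIMP1 does so for MMP1, MMP3 and MMP9. The activators PLAU (urokinase) and PLAT (tissue-type activator) turn plasminogen into plasmin, a broad protease that also activates several pro-MMPs. PLAUR holds urokinase at the cell surface, and SERPINB2 is an inhibitor of both activators. In breast cancer the urokinase system and the MMPs are known for their part in matrix breakdown and invasion.

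Total counts per library ran from 13731520 to 19234924, and the common coefficient of biological variation was 7.06%. The labelled cell type was checked against markers. The 7 mesenchymal markers summed to 4830 to 5800 CPM per library (counts scaled by the library total after TMM). Most of that came from VIM and CD44, while CDH2 and SPARC had means of 0.778 to 1.14 and 0.541 to 0.848 CPM per time. The 8 epithelial markers summed to 1690 to 2550 CPM, most of it from KRT8 and KRT18. KRT19 had means of 304 to 460 CPM per time, EPCAM 13.7 to 17.8 and GATA3 8.61 to 11.7. CDH1 had 16 counts or fewer in any library. Of the receptors that define the triple-negative class, ESR1 and PGR had at most 2 and 1 counts in any library, and ERBB2 had means of 59.3 to 66.6 CPM per time. Markers of immune cells summed to 62.4 to 106 CPM per library, most of it CD68, with CD3E at 0 in all libraries and PTPRC at 5 counts or fewer. Fibroblast markers summed to 14.6 to 24.3 CPM and endothelial ones to 2.37 to 7.44 CPM.

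The sequence just upstream of the transcription start was taken from the RefSeq promoter table (GRCh38.p14) for the starts of the members it holds. Entries were matched for 4 of the 9 genes, MMP14, TIMP1, PLAU (2 start sites) and PLAUR, and not for MMP1, MMP3, MMP9, TIMP2 and PLAT. The 250 bases before each start were searched for the AP-1 site (letters TGANTCA, read on both strands) and for the κB site by its usual consensus, on both strands. These motifs are bound by the AP-1 and NF-κB factors. The sole match was an AP-1 site in the PLAUR window, at positions -186 to -180 from the RefSeq start, on chromosome 19. Of all 35116 windows of this length in the table, 6.57% held an AP-1 match and 9.96% a κB match. The windows of MMP14, TIMP1 and PLAU held neither set of letters, which says nothing about binding of the factors. In GENCODE 29 the PLAUR match falls in the first exon of the longer transcript PLAUR-201, and both PLAU windows overlap exons of C10orf55 on the opposite strand. Printed are the 30 bases around the PLAUR match at chr19:43670337-43670366 (minus strand), with the AP-1 letters in capitals, and the parts of the MMP14 window at chr14:22836335-22836556 (plus strand) and of the TIMP1 window at chrX:47582186-47582312 (plus strand) that lie before any annotated exon.
PLAUR: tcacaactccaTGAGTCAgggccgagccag
MMP14: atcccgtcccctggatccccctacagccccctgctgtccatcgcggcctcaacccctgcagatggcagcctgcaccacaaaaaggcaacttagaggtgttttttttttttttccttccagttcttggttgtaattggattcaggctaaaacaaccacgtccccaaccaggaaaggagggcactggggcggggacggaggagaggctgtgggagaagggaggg
TIMP1: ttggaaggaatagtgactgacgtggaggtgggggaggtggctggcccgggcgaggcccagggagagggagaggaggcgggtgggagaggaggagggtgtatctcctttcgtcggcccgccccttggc

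Compared per length of transcript, the inhibitor TIMP1 had the highest level, 485 CPM per kb averaged over the 17 libraries, which is above 99.2% of the tested genes. PLAU followed with 201, PLAT with 133, MMP14 with 124, TIMP2 with 119 and PLAUR with 73.3 CPM per kb, the last above 93.7% of tested genes. MMP1 was at 32.3 CPM per kb, above 85.3% of tested genes. MMP9 and MMP3 stood at 0.132 and 0.0545 CPM per kb. These cells therefore carried abundant transcripts of both activators, the urokinase receptor, the membrane-bound protease and both inhibitors, a lower but still high level of the collagenase MMP1, and close to no MMP3 or MMP9 transcript.

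**Figure D1:**
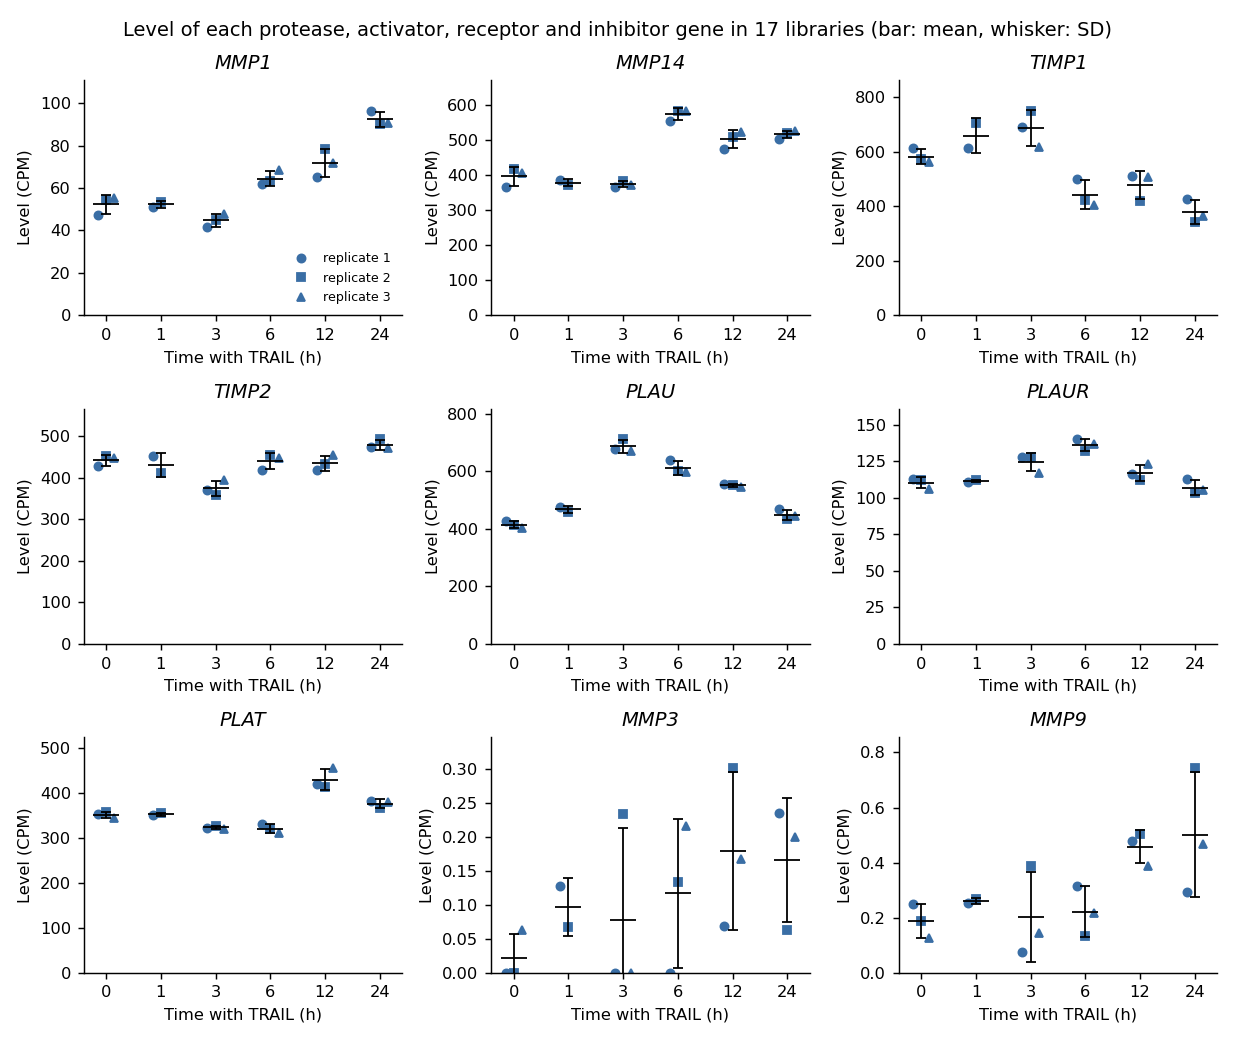
Level in CPM (linear axis from 0, each gene on its own scale) against time with TRAIL in h, for the 9 genes; points are libraries, marked by replicate number, bars are means and whiskers SDs. PLAU peaks at 3 h, PLAUR and MMP14 at 6 h, PLAT at 12 h and MMP1 at 24 h, while TIMP1 is below its 0 h libraries from 6 h on.

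Each later time was compared with 0 h in 1 edgeR quasi-likelihood model over all libraries, with Benjamini-Hochberg adjustment over the genes tested. A gene is called where its adjusted p is below 0.05. All these comparisons share the 3 libraries at 0 h. At 1 h, 0 of the 7 tested genes were called by edgeR, DESeq2 or limma-voom, against 0.26% of all tested genes called higher and 0.0521% called lower. PLAU alone had an unadjusted p below 0.05 at that time. At 3 h, 2 were higher (PLAU and PLAUR) and 1 was lower (TIMP2), with 9.04% of all genes higher and 8.71% lower. At 6 h, 4 were higher (MMP1, MMP14, PLAU and PLAUR) and 1 was lower (TIMP1), with 16.9% of all genes higher and 13.2% lower. At 12 h, 4 were higher (MMP1, MMP14, PLAU and PLAT), against 5.96% of all genes. None of the 7 was lower at 12 h, against 6.48% of all genes, although TIMP1 had an unadjusted p below 0.05 and was called lower by DESeq2 and not by limma-voom. At 24 h, 2 were higher (MMP1 and MMP14) and 1 was lower (TIMP1), with 18% of all genes higher and 17.1% lower.

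All 7 changed over the 6 times in the F-test of edgeR, as did 64.2% of all tested genes. Of the 15 calls against 0 h, 14 kept their call and direction in each of the 13 alternative analyses and each of the 17 fits without 1 library, and PLAUR at 3 h did not. MMP1 had the largest single change among them, 1.77-fold at 24 h, and 12.7% of tested genes had a larger one at some time. PLAU reached 1.66-fold (16.4% of genes larger), TIMP1 1.54-fold in the lower direction (22.4%) and MMP14 1.45-fold (30%). For PLAUR, PLAT and TIMP2 the largest log2 changes were 0.31, 0.29 and 0.24 in size, exceeded by 63.7%, 67.3% and 77.1% of genes.

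How the calls of all genes divide into higher and lower depends on the scaling. At 6 h there were 2602 higher and 2025 lower genes, and 1888 and 3047 under upper-quartile scaling. With library size as the only scaling there were 913 and 2153 at 3 h (1389 and 1338 with TMM), 1080 and 761 at 12 h (916 and 995), and 3742 and 1860 at 24 h (2763 and 2625). The median of all genes moved by at most 0.0743 on the log2 scale under these scalings.

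**Figure D2:**
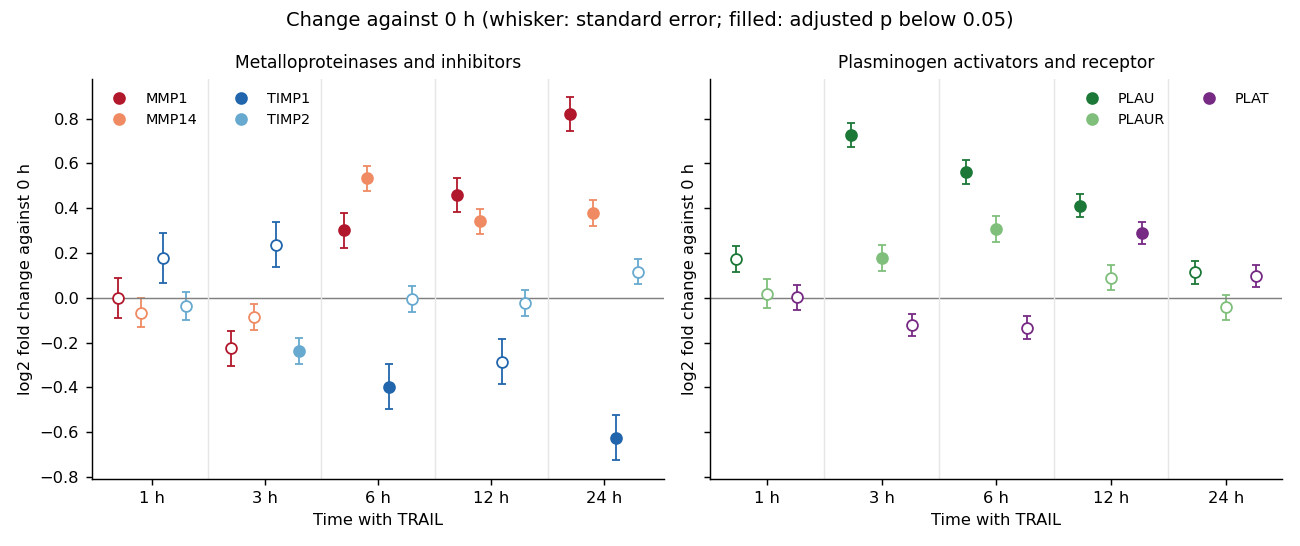
log2 fold change against 0 h at each later time for the 7 tested genes, with the standard error as whisker; filled symbols have an edgeR adjusted p below 0.05. The metalloproteinases sit above 0 from 6 h on while TIMP1 sits below it, and the PLAU values fall from 0.73 at 3 h to 0.11 at 24 h.

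MMP14, the membrane-anchored protease (chr14:22836557-22849027, plus strand), stepped up between 3 and 6 h and stayed up. The 0 h libraries had 367, 419 and 406 CPM, the 1 h libraries 387 and 372, and the 3 h libraries 368, 385 and 372. From then on the levels were 555, 584 and 585 CPM (6 h), 475, 511 and 524 (12 h) and 505, 520 and 526 (24 h). Every library from 6 h on lay above every earlier one. The 0 h mean of 397 ± 27.4 CPM compares with 575 ± 16.8 CPM after 6 h (SD, n = 3 each). Against 0 h the log2 fold changes were 0.53 ± 0.06 (SE), 0.34 ± 0.06 and 0.38 ± 0.06 at 6, 12 and 24 h, with edgeR adjusted p of 2.57e-06, 7.43e-04 and 8.71e-05. At 1 and 3 h it was -0.07 and -0.08, with adjusted p of 0.987 and 0.328.

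MMP1, the interstitial collagenase (chr11:102789920-102798160, minus strand), climbed until 24 h. Its levels at 0 h were 47.3, 54.2 and 55.5 CPM, those at 1 h were 51.1 and 53.6, and those at 3 h were 41.5, 45 and 47.8. The libraries of 6 h had 61.7, 63.2 and 68.5 CPM, those of 12 h 65.3, 78.4 and 72, and those of 24 h 96.5, 90 and 90.7. The 24 h libraries stood above all others, the 6 and 12 h libraries overlapped each other and stood above all earlier ones, and 2 of the 3 libraries at 3 h were below every 0 h library. Its log2 fold changes at 6, 12 and 24 h were 0.30 ± 0.08 (SE), 0.46 ± 0.08 and 0.82 ± 0.08, with edgeR adjusted p of 0.00677, 6.9e-04 and 5.04e-07. At 3 h it was -0.23 ± 0.08 with adjusted p = 0.0543. That value passed the threshold in 6 of the 13 alternatives, for instance -0.25 with adjusted p = 0.0275 without the filter on low counts. It also passed without replicate 1 of 0 h (-0.29, 0.0203) or replicate 3 of 3 h (-0.27, 0.0369), and without 3 single libraries of 12 and 24 h (0.0433 to 0.0498). WTAPP1, a pseudogene on the opposite strand that overlaps MMP1, had at most 2 counts in any library.

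MMP3 (stromelysin 1), MMP1's neighbour on chromosome 11, had 0 to 6 counts per library. There was 1 count over the 3 libraries at 0 h, 3 over the 2 at 1 h, and 3, 6, 10 and 8 over the libraries of 3, 6, 12 and 24 h. These sums give 0.0207 CPM of the unscaled totals at 0 h, with an exact Poisson 95% interval of 5.24e-04 to 0.115, and 0.174 at 24 h, with an interval of 0.0753 to 0.344. The intervals cover counting error only. Those at 0 and 24 h overlap, which does not test the difference.

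MMP9 (gelatinase B, chr20:46008908-46016561, plus strand) had 1 to 12 counts per library. The 0 h libraries had 4, 3 and 2 counts, the 1 h libraries 4 and 4, the 3 h libraries 1, 5 and 2, and the 6 h libraries 5, 2 and 4. After 12 h there were 7, 10 and 7, and after 24 h 5, 12 and 7. Each of the 6 libraries at 12 and 24 h had more counts than any library at 0 h. The intervals of the summed levels were 0.0852 to 0.354 CPM at 0 h and 0.335 to 0.778 at 24 h. Their narrow overlap does not test the difference. With no filter on low counts, edgeR gave MMP9 a log2 fold change of 1.38 at 24 h, with an unadjusted p of 0.034 and an adjusted p of 0.148. MMP3 was at 2.77 at 12 h and 2.6 at 24 h in that analysis, with unadjusted p of 0.0272 and 0.0438 and adjusted p of 0.202 and 0.18. At these counts neither gene passed the threshold at any time against 0 h.

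PLAU, urokinase (chr10:73909177-73917497, plus strand), had its highest level at 3 h. It started from 428, 413 and 402 CPM, stood at 477 and 458 CPM after 1 h and reached 676, 711 and 671 CPM after 3 h. It then came down in steps, with 638, 600 and 596 CPM in the 6 h libraries, 555, 553 and 544 in the 12 h libraries, and 468, 433 and 444 in the 24 h libraries. All 14 libraries after 0 h lay above all 3 of 0 h, and the libraries at 3, 6 and 12 h formed 3 ranges that did not overlap. For 3, 6 and 12 h the log2 fold changes were 0.73 ± 0.05 (SE), 0.56 ± 0.05 and 0.41 ± 0.05, with edgeR adjusted p of 7.64e-09, 4.57e-07 and 4.06e-05. At 1 h it was 0.18 ± 0.06, with adjusted p = 0.553.

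At 24 h the PLAU value was 0.11 ± 0.05 with adjusted p = 0.0951. It passed the threshold under scaling by library size (0.19, adjusted p = 0.00606), with DESeq2 (0.11, 0.0408) and after a correction for transcript length and GC content (0.18, 0.0012). PLAU shares its locus with C10orf55 on the opposite strand, which had 27.18 to 70.54 expected counts per library, and the counts of PLAU were not whole numbers in 17 of 17 libraries, a form that division of fragments between overlapping genes gives.

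PLAT, tissue-type plasminogen activator, had its peak at 12 h. The starting levels were 354, 357 and 344 CPM, and the 1 h libraries had 350 and 355. Levels of 323, 327 and 321 CPM followed after 3 h, and of 331, 319 and 311 CPM after 6 h. The 12 h libraries had 421, 413 and 456 CPM and the 24 h libraries 383, 366 and 381. All libraries of 3 and 6 h were below every 0 h library, and all of 12 and 24 h were above. Of these differences 1 passed the test, that at 12 h, with a log2 fold change of 0.29 ± 0.05 (SE) and an edgeR adjusted p of 0.00107. The values for 3, 6 and 24 h were -0.12 (adjusted p = 0.105), -0.13 (0.0511) and 0.10 (0.139). The 3 h value passed under scaling by library size (-0.19, adjusted p = 0.0111), with DESeq2 (-0.12, 0.0483) and after the length and GC correction (-0.12, 0.0297). The 6 h value passed with several alternatives, among them DESeq2 (-0.14, adjusted p = 0.0146) and limma-voom (-0.13, 0.0408), and missed the threshold further after the length and GC correction (-0.07, 0.231). The 24 h value passed after that correction (0.17, 0.0028) and under scaling by library size (0.17, 0.0104).

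PLAUR, the urokinase receptor (chr19:43646095-43670547, minus strand), peaked at 6 h. The 0 h libraries had 113, 112 and 106 CPM and the 1 h libraries 111 and 112. Levels were 128, 128 and 117 CPM after 3 h, and 140, 132 and 137 CPM after 6 h. They were 116, 112 and 123 CPM after 12 h, and 113, 103 and 105 CPM after 24 h. The 6 h libraries stood above all others. The 3 h libraries stood above those of 0 and 1 h, and the libraries of 24 h overlapped those of 0 h. At 6 h the log2 fold change was 0.31 ± 0.06 (SE), with an edgeR adjusted p of 6.43e-04.

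At 3 h the PLAUR value was 0.18 ± 0.06 with adjusted p = 0.036, and this call was lost without replicate 2 (adjusted p = 0.068) or 3 (0.15) of 0 h, without replicate 1 (0.125) or 2 (0.117) of 3 h, and under 5 of the other settings. At 12 and 24 h the values were 0.09 and -0.04, with adjusted p of 0.321 and 0.591. PLAUR has a short transcript of 1610 nt, and its values depended on the length and GC correction, with which it was 0.47 at 6 h (adjusted p = 1.31e-08), 0.17 at 12 h (0.00548) and 0.13 at 24 h (0.0217), so that the direction at 24 h was reversed.

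TIMP1, the secreted inhibitor (chrX:47582313-47586789, plus strand), was below its start from 6 h on. Its 0 h libraries had 614, 573 and 561 CPM, its 1 h libraries 613 and 706, and its 3 h libraries 691, 751 and 619. The levels were 502, 422 and 405 CPM after 6 h, 510, 419 and 506 CPM after 12 h, and 427, 343 and 363 CPM after 24 h. All 3 libraries of 3 h lay above, and all 9 of 6, 12 and 24 h below, every 0 h library. At 6 and 24 h its log2 fold changes were -0.40 ± 0.10 (SE) and -0.62 ± 0.10, with edgeR adjusted p of 0.00768 and 2.45e-04. At 3 and 12 h the values were 0.24 and -0.29, with adjusted p of 0.112 and 0.0739. Both passed with no filter on low counts (0.22 with 0.0151, -0.28 with 9.23e-04) and in fits of only the compared times (0.0342 and 0.026), and the 12 h value also with DESeq2 (-0.28, 0.0401).

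Among the 17 libraries TIMP1 moved with a trend that concerns all genes. For each library, the slope of log2 CPM, taken as a deviation from the average library, on log2 transcript length ran from -0.143 (3 h, replicate 2) to 0.138 (24 h, replicate 2), so that short transcripts took a larger share of counts in the former. TIMP1, whose transcript of 1095 nt is longer than those of 10.4% of tested genes, had its highest level in the former library and its lowest in the latter. Pearson's r of log2 TIMP1 level with that slope was -0.978, and with the log2 share of counts from 82 ribosomal protein genes, which have short transcripts, it was 0.977 (17 libraries, a description, since all values come from the same counts). That share ran from 6.25% to 9.44%. The share of counts from mitochondrial genes moved with the TIMP1 level as well (r = 0.955). It was 5.53% to 8.37% at 0 h, 7.65% to 9.71% in the libraries of 1 and 3 h, and 3.97% to 5.45% at 6 h. At 12 h it was 5.01% to 6.8% and at 24 h 3.66% to 4.14%, and its part in the TIMP1 values was not tested. Replicate 1 of 6 h and of 24 h stood apart from the other two of its time in slope, at 0.0118 and 0.025 against 0.0951 to 0.138, and had the highest TIMP1 level of its time. After the length and GC correction the TIMP1 log2 fold changes were smaller at 6 and 24 h, -0.19 (adjusted p = 0.00562) and -0.38 (4.46e-06), and still lower than 0 h. The value at 12 h was then -0.17 with adjusted p = 0.0176. How much of the TIMP1 decrease goes with the trend and how much is particular to the gene was not tested beyond this correction.

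**Figure D3:**
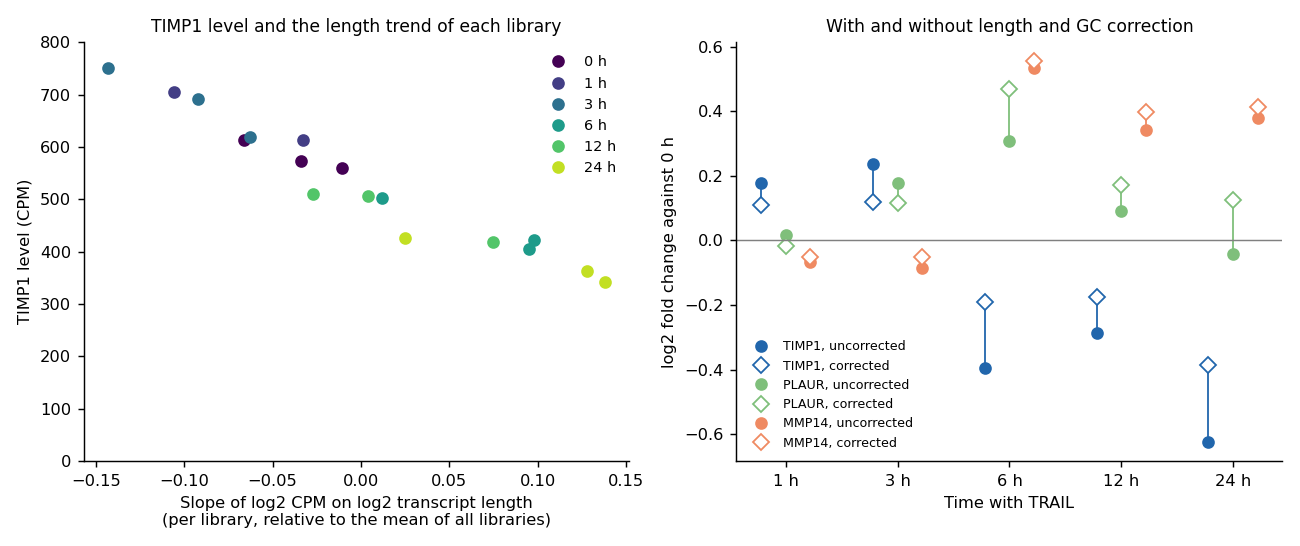
Left, TIMP1 level in CPM against the slope of log2 CPM on log2 transcript length of the library, coloured by time; right, log2 fold changes against 0 h of TIMP1, PLAUR and MMP14 without (filled circles) and with (open diamonds) the length and GC correction. TIMP1 falls as the slope rises from -0.143 to 0.138, the correction brings its 24 h value from -0.62 to -0.38 and raises the 6 h value of PLAUR from 0.31 to 0.47, and the values of MMP14 move little.

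TIMP2, the inhibitor that also takes part in pro-MMP2 activation (chr17:78852977-78925387, minus strand), was lowest at 3 h and highest at 24 h. It had 427, 452 and 446 CPM in the 0 h libraries, 451 and 410 in the 1 h libraries, and 371, 357 and 394 in the 3 h libraries. After 6 h it had 417, 454 and 448 CPM, after 12 h 417, 433 and 453 CPM, and after 24 h 474, 492 and 470 CPM. The 3 h libraries lay below all others and the 24 h libraries above all others, while the remaining times overlapped. The dip at 3 h passed the test, with a log2 fold change of -0.24 ± 0.06 (SE) and an edgeR adjusted p of 0.00777. The value at 24 h was 0.12 ± 0.06 with adjusted p = 0.12, and 0.19 (0.0249) under scaling by library size. Its counts were not whole in 6 libraries, and 4 annotated genes overlap it.

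Comparisons of each time with the one before it show when the steps took place, and from 3 h on they do not compare with the 0 h libraries. The filter, the scaling and the spread behind their p-values still come from all libraries, 0 h included. Values given are log2 fold changes with SE. From 1 to 3 h, 1 of the 7 was higher, PLAU (0.55 ± 0.06, edgeR adjusted p = 6.7e-06), where 3.17% of all genes were higher and 2.56% lower. None was lower, although MMP1, TIMP2 and PLAT had unadjusted p below 0.05, DESeq2 called 1 of them lower (TIMP2) and limma-voom 0.

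From 3 to 6 h, 3 were higher and 2 lower, where 22.9% of all genes were higher and 20.3% lower. MMP14 rose by 0.62 ± 0.06 (adjusted p = 7.28e-07), MMP1 by 0.53 ± 0.08 (7.86e-05) and TIMP2 by 0.23 ± 0.06 (0.00311). TIMP1 fell by 0.63 ± 0.10 on the log2 scale (1.65e-04), and by 0.31 after the length and GC correction (4.54e-05). PLAU was lower by a log2 fold change of -0.17 (0.0146). This call was lost under scaling by library size (-0.09, adjusted p = 0.127), after the length and GC correction (-0.09, 0.0624), with no filter on low counts (-0.14, 0.135) and with replicates 2 and 3 averaged at 6 and 24 h (-0.16, 0.062). It was also lost without replicate 2 of 3 h (-0.14, 0.0611) or without replicate 2 (-0.15, 0.0597) or 3 (-0.15, 0.0691) of 6 h. PLAUR was at 0.13 (0.0753), and at 0.35 (1.18e-06) after that correction. Over all genes 3526 were higher and 3114 lower, with 2852 and 3842 under upper-quartile scaling and 4301 and 2443 under scaling by library size.

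From 6 to 12 h, 1 was higher and 3 lower, where 8.7% of all genes were higher and 11.9% lower. PLAT rose by 0.42 ± 0.05 (edgeR adjusted p = 1.17e-05). PLAUR fell by 0.22 ± 0.06 on the log2 scale (0.0105), a call lost under upper-quartile scaling (-0.14, 0.0859). MMP14 was at -0.19 (0.0224) and PLAU at -0.15 (0.0442). The MMP14 call was lost without replicate 2 (adjusted p = 0.0808) or 3 (0.0861) of 6 h or replicate 1 (0.103) of 12 h, and the PLAU call without any one of the 6 libraries compared (0.0738 to 0.143) or without replicate 3 of 24 h (0.0565). Both calls were also lost under upper-quartile scaling (-0.12 with adjusted p = 0.122 for MMP14, -0.08 with 0.334 for PLAU) and under scaling by library size (-0.16 with 0.0781, -0.12 with 0.0923), and with replicates 2 and 3 averaged at 6 and 24 h (0.106 and 0.101). That of PLAU was lost further with no filter on low counts (0.156) and in a fit of only these 2 times (0.0692). Over all genes 1337 were higher and 1831 lower, with 2184 and 1104 under upper-quartile scaling and 1696 and 1276 under scaling by library size.

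From 12 to 24 h, 1 was higher and 3 lower, where 6.42% of all genes were higher and 5.6% lower. MMP1 rose by 0.36 ± 0.07 (edgeR adjusted p = 0.00504), and PLAU fell by 0.30 ± 0.05 on the log2 scale (0.00154). TIMP1 was at -0.34 (0.0375) and PLAT at -0.19 (0.0197). The TIMP1 call was lost without replicate 1 (0.159) or 3 (0.113) of 12 h, replicate 2 (0.168) or 3 (0.136) of 24 h or replicate 1 of 3 h (0.0515). The PLAT call was lost without replicate 1 (0.0553) or 3 (0.0887) of 12 h or replicate 2 (0.0996) or 3 (0.0595) of 24 h. With replicates 2 and 3 averaged at 6 and 24 h both were lost (0.167 for TIMP1, 0.0946 for PLAT), and that of PLAT also in a fit of only these 2 times (0.0746). Over all genes 987 were higher and 860 lower, with 808 and 1052 under upper-quartile scaling and 1270 and 627 under scaling by library size.

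From a list of partners of the plasminogen system, the activator inhibitor SERPINB2 was scarce, at 1.97 ± 0.63 CPM at 0 h and 6.75 ± 0.501 at 6 h (SD, n = 3). For 3, 6 and 12 h the log2 fold changes of SERPINB2 were 1.03, 1.77 and 1.06, with edgeR adjusted p of 0.00518, 1.2e-05 and 0.00493. These calls of SERPINB2 stayed in all 13 alternatives and in all 17 fits without 1 library. LRP1, the receptor that clears activator and inhibitor complexes, passed the test at none of the 5 times against 0 h.

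Of 14 plasminogen partners 13 were tested. Higher and lower ones numbered 1 and 3 after 3 h, 3 and 3 after 6 h, 1 and 1 after 12 h, and 2 and 3 after 24 h. As shares of those tested, 7.69% were higher and 23.1% lower at 3 h (9.04% and 8.71% of all genes), 23.1% and 23.1% at 6 h (16.9% and 13.2%), 7.69% and 7.69% at 12 h (5.96% and 6.48%), and 15.4% and 23.1% at 24 h (18% and 17.1%). The integrin chain ITGAV, which pairs into vitronectin receptors, was 0.61 higher at 6 h and 0.56 at 24 h on the log2 scale, with edgeR adjusted p of 0.0321 and 0.041. Both ITGAV calls were lost without replicate 1 or 2 of 0 h, and with replicates 2 and 3 averaged at 6 and 24 h. That at 6 h was also lost without replicate 2 or 3 of 6 h. That at 24 h was also lost without replicate 2 or 3 of 24 h and in a fit of only the compared times. The median log2 fold change of the tested partners lay between -0.20 and 0.11 at these times, beside -0.0218 to -0.00175 over all tested genes.

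Of the 19 other matrix metalloproteinases 9 were tested. At 6 h 1 was higher, 11.1% of those tested beside 16.9% of all genes, and at 24 h 1 was lower, 11.1% beside 17.1%, so that both shares lay near those of all genes. Of those tested, 0 were lower at 6 h and 0 higher at 24 h, beside 13.2% and 18% of all genes. At 6 h limma-voom called 1 lower. MMP24, a membrane-type enzyme, was 0.59 higher at 6 h on the log2 scale (edgeR adjusted p = 0.0191), and MMP17, another membrane-bound one, was at -0.90 at 24 h (0.0162). The MMP24 call was lost without replicate 2 of 0 h or replicate 3 of 6 h, and with replicates 2 and 3 averaged at 6 and 24 h. The MMP17 call was lost with DESeq2, after the length and GC correction (-0.61, adjusted p = 0.0896), and without replicate 1 or 2 of 0 h or replicate 2 of 24 h. At 3 h and at 12 h 0 were called by edgeR, DESeq2 or limma-voom, with 0 and 6 at an unadjusted p below 0.05. Of all genes, edgeR called 9.04% higher and 8.71% lower at 3 h, and 5.96% and 6.48% at 12 h. The share of all genes at that unadjusted p was not taken. MMP2, the proenzyme that MMP14 and TIMP2 activate together, had at most 3 counts in any library.

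Of the other inhibitors and the inducer of metalloproteinases, TIMP3, RECK, TIMP4 and BSG, all 4 were tested. TIMP3, an inhibitor held in the matrix, started from 410 ± 17.6 CPM and had 311 ± 8.33 CPM after 6 h and 533 ± 1.85 CPM after 24 h (SD, n = 3). Its log2 fold changes after 3, 6 and 24 h were -0.36, -0.40 and 0.38, with edgeR adjusted p of 1.24e-04, 2.91e-05 and 4.37e-05. At 24 h TIMP3 was thus higher where TIMP1 was lower, with values of 0.28 and -0.38 after the length and GC correction. BSG, which induces MMP production in neighbouring cells, had values of -0.27 and -0.31 after 6 and 24 h (0.00728 and 0.00282), and of -0.10 and -0.09 after the length and GC correction (0.0539 and 0.0667). RECK and TIMP4 passed the test at none of the 5 times.

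Of the 19 ADAM and ADAMTS proteases, which release membrane proteins or cut proteoglycans, 15 were tested. After 3 h 2 were higher and 4 lower, after 6 h 5 and 3, after 12 h 2 and 2, and after 24 h 6 and 1. The higher ones made up 13.3%, 33.3%, 13.3% and 40% of those tested at 3, 6, 12 and 24 h (9.04%, 16.9%, 5.96% and 18% of all genes), and the lower ones 26.7%, 20%, 13.3% and 6.67% (8.71%, 13.2%, 6.48% and 17.1%). Their median log2 fold change was -0.15, 0.21, 0.05 and 0.36 at these times, beside -0.0218 to -0.00175 for all tested genes. These shares and medians were taken without the length and GC correction. How far they go with the length trend of the libraries was not tested. ADAMTS9, a proteoglycan-cutting enzyme, was 0.91 higher at 6 h and 0.77 at 24 h on the log2 scale (edgeR adjusted p of 2.82e-04 and 9.67e-04). ADAM17, the enzyme that releases TNF from the cell surface, was 0.63 higher at 24 h (0.00197). ADAM19 was higher by 0.34, 0.56 and 0.25 after 3, 6 and 12 h (0.00646, 5.36e-05 and 0.0412), and ADAMTS15 0.30 higher at 12 h (5.66e-04). ADAMTS15 was also called lower at 3 and 6 h, with means of 91.8 and 103 CPM beside 113 at 0 h, and higher at 24 h (145 CPM). ADAMTS6 was 0.49 higher at 3 h and at -0.53 at 24 h (0.0018 and 7.16e-04). After the length and GC correction, ADAMTS9 was at 0.77 at 6 h and 0.57 at 24 h, and ADAM17 at 0.51 at 24 h. ADAM19 was then at 0.38, 0.45 and 0.24 after 3, 6 and 12 h, and ADAMTS15 at 0.34 at 12 h. ADAMTS6 was then at 0.55 at 3 h and -0.75 at 24 h. All of these values still passed the threshold.

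Lower members of the ADAM and ADAMTS list included ADAMTS14, which trims procollagen, at -0.71 at 6 h and -0.72 at 12 h (edgeR adjusted p of 0.00279 and 0.00555). ADAM9 was at -0.64 and ADAM10, a sheddase, at -0.39 at 3 h (0.0293 and 0.031). At 24 h ADAM10 was called higher, with a mean of 196 CPM beside 148 at 0 h. The 3 h calls of ADAM9 and ADAM10 were lost without replicate 2 or 3 of 0 h and without replicate 1 or 2 of 3 h. That of ADAM9 was also lost in a fit of only the compared times. The 12 h call of ADAM19 was lost in 10 of the 17 fits without 1 library, and with replicates 2 and 3 averaged at 6 and 24 h.

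Among the 22 cathepsins and other secreted proteases with their inhibitors, 18 were tested, and most of those called were lower. After 3 h 0 were higher and 4 lower, after 6 h 1 and 6, after 12 h 0 and 8, and after 24 h 1 and 9. The lower ones made up 22.2%, 33.3%, 44.4% and 50% of those tested at 3, 6, 12 and 24 h, beside 8.71%, 13.2%, 6.48% and 17.1% of all genes, and the higher ones 0%, 5.56%, 0% and 5.56%, beside 9.04%, 16.9%, 5.96% and 18%. At 3 h 0 of them had an unadjusted p below 0.05 in the higher direction, at 12 h 1 did, and DESeq2 and limma-voom called 0 higher at both. The median log2 fold change of the tested ones was -0.19 at 12 h and -0.20 at 24 h, beside -0.0032 and -0.00175 for all tested genes. Shares and medians of this list were taken without the length and GC correction. How far they go with the length trend of the libraries was not tested. CST3, an inhibitor of cathepsins, had values of -0.51, -0.51 and -0.65 after 6, 12 and 24 h (edgeR adjusted p of 0.00895, 0.0196 and 0.00178). The 12 h call of CST3 was lost without replicate 1 or 2 of 0 h or replicate 2 of 12 h. It was also lost in a fit of only the compared times. CTSH, a lysosomal cysteine protease, was at -0.52 at 24 h (3.3e-04). CTSD, the lysosomal cathepsin D, was at -0.39 at 3 h (0.00202), and HTRA1, a secreted serine protease, at -0.35 at 12 h (6.84e-04). After the length and GC correction, CST3 was at -0.52, -0.56 and -0.69 after 6, 12 and 24 h, and CTSH at -0.42 at 24 h. CTSD was then at -0.415 at 3 h and HTRA1 at -0.265 at 12 h. These corrected values still passed the threshold.

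Across the 17 libraries, which share the time course and the scaling, the members were compared by Pearson's r of log2 CPM, given as a description. MMP1 and MMP14 had r = 0.777 with each other and -0.901 and -0.862 with TIMP1. TIMP2 had 0.769 with MMP1, 0.585 with MMP14, -0.786 with TIMP1 and -0.688 with PLAU. PLAU and PLAUR had r = 0.799. PLAT had its highest r with MMP1, 0.531. The genes most like each member among 11368 whose average log2 CPM reached 2 were CXCL8 (r = 0.963), TPRA1 (0.953) and PPP1R18 (0.948) for PLAU. For MMP14 they were PLK1 (0.977), PITRM1 (0.97) and TLE3 (0.962), and for MMP1 DAZAP2 (0.966), ITGA5 (0.962) and PRCP (0.958). For TIMP1 they were the ribosomal protein genes RPL29 (0.993), RPS18 (0.992) and RPS14 (0.99). For PLAT they were HSPA5 (0.929), SERPINH1 (0.918) and SNPH (0.913), for PLAUR MTA2 (0.947), ATF5 (0.943) and MFSD2A (0.928), and for TIMP2 PLS1 (0.961), SARAF (0.959) and EMP1 (0.959).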

How the data were processed

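RNA was measured by sequencing of stranded, poly(A)-selected, paired-end libraries, per the labels' protocols. The authors deposited expected counts, that is, estimated fragments per gene, which came from RSEM per the file headers and names. Cutadapt 1.18, STAR 2.7.0f and the build hg38 are named, per the submitters' processing notes. The RSEM version, the annotation release and the strand setting are not given in the sources used here. As deposited, 10.84% of the values were not whole, and all were rounded.

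Groups are the labelled times. Total counts per library were 13731520 to 19234924. With edgeR 4.0.16 (R 4.3.3), genes were filtered by filterByExpr (minimum count 10), libraries scaled by TMM, and 1 quasi-likelihood model with robust estimation and a mean per time was fitted to all 17 libraries. All adjusted p-values are Benjamini-Hochberg values over the 15365 genes tested, from edgeR where no other tool is named, with a threshold of 0.05. CPM are relative to the TMM-scaled library total. Gene positions, transcript lengths (longest basic transcript) and GC content come from GENCODE 29 on GRCh38. Of the identifiers, 47456 matched it with their version and 58552 without. The length and GC correction used per-library offsets from a smooth trend fitted with mgcv 1.9.3.

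The 9 members are all named. Of the partner lists, up to 3 called genes per direction and time with the largest change and an average log2 CPM of at least 2 are named, and always SERPINB2 and LRP1. 1 listed gene is not reported here. MMP24, MMP17, BSG, MMP2, RECK and TIMP4 were named after their values were seen, as were the TIMP3 values at 3 and 24 h. For each member the 3 genes with the highest Pearson r over libraries (log2 CPM, prior count 2) are given. The members and lists were chosen with earlier results of these data known.

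Alternatives were RLE, upper-quartile and library-size scaling, a mean count of at least 10, no filter, DESeq2 1.42.0, limma-voom (limma 3.58.1), non-robust estimation, fits of only the compared groups, a replicate block, unrounded counts, the closest replicate pairs averaged, the length and GC correction, and each library left out in turn. The scripts were tested on simulated counts with known changes at 24 h against 0 h. Of the changed genes, 43.3% were called at 1.25-fold, 73.1% at 1.5-fold and 92.4% at 2-fold, so small changes can be missed. These rates are over genes of many levels and are not those of the members.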

Additional observations from a re-analysis of the deposited data

How the results depend on the processing

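The direction and call of the members' log2 fold changes were recomputed in 13 settings and without each of the 17 libraries. In the settings 744 of 819 values kept both, and without a library 1017 of 1071 did. Leaving out 1 of the 2 libraries at 1 h leaves a single one there, which is then assumed to vary like the others. The depth leaves MMP3 and MMP9 untested. The cause of the changes listed here was not tested.

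The number of members called at 3 h (3) became 5 with DESeq2 and 5 with the length and GC correction, and 2 to 4 without 1 library. At 12 h it was 4. The length and GC correction added PLAUR (higher, adjusted p = 0.00548) and TIMP1 (lower, 0.0176) there, and DESeq2 added TIMP1 (lower, 0.0401). At 24 h the number was 3, with 6 under scaling by library size and 6 with the length and GC correction. From 1 to 3 h it was 1, with 2 under upper-quartile scaling, 2 with DESeq2, 2 with the length and GC correction, and 1 to 2 without 1 library. From 6 to 12 h it was 4, with 2 under upper-quartile scaling, 2 under scaling by library size, 2 with replicates 2 and 3 averaged at 6 h and 24 h, and 2 to 4 without 1 library. From 12 to 24 h it was 4, with 2 for the averaged replicates and 2 to 4 without 1 library.

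The labels do not say that replicate numbers pair the libraries. Deviations from the time means correlated at -0.199 to 0.211 over 40 pairs of the same number and at -0.163 to 0.199 over 80 pairs of different numbers, so the libraries were not treated as paired. A hint of pairing in the data is that 10 of 17 libraries were most like one of their own number. With the replicate block the members called numbered 4 at 3 h, through MMP1 (-0.23, adjusted p = 0.038), and stayed at 5, 4 and 3 at 6, 12 and 24 h.

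Values near 0 changed sign. MMP1 at 1 h became 0.00684 under upper-quartile scaling, 0.00194 with a mean count of at least 10, 0.00235 with limma-voom and 0.0249 with the replicate block. TIMP2 became 0.00963 at 12 h under scaling by library size, and from 6 to 12 h 0.0559 under upper-quartile scaling, 0.0144 by library size and 0.00653 with averaged replicates. PLAUR at 1 h became -0.028 by library size and -0.0163 with the length and GC correction, and at 24 h 0.0315 and 0.126. PLAT at 1 h became -0.00653 under RLE scaling, -0.0441 by library size, -0.000826 with no filter, -0.00654 with DESeq2 and -0.0064 with averaged replicates, and from 3 to 6 h 0.0574 by library size, 0.0109 with no filter and 0.0553 with the length and GC correction.

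Without 1 library, MMP1 at 1 h ranged from -0.0668 to 0.0436, TIMP2 from -0.104 to 0.0263, PLAUR from -0.0105 to 0.0365 and PLAT from -0.0131 to 0.016. TIMP2 at 6 h ranged from -0.0308 to 0.0301 and from 6 to 12 h from -0.0535 to 0.00553. From 1 to 3 h MMP14 ranged from -0.0409 to 0.00549 and TIMP1 from -0.0441 to 0.171, and from 3 to 6 h PLAT from -0.0378 to 0.00766.

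Over all genes the calls at 1 h (48) became 195 with no filter. With the averaged replicates, 4627 at 6 h became 2532, 5388 at 24 h became 3464, 3168 from 6 to 12 h became 1670, and 1847 from 12 to 24 h became 452. From 1 to 3 h, 880 became 307 with only the compared groups and 1863 with the length and GC correction. Without 1 library the counts ranged from 27 to 48 at 1 h, 1412 to 3029 at 3 h, 2663 to 4970 at 6 h, 724 to 2147 at 12 h, 3444 to 5798 at 24 h, 271 to 975 from 1 to 3 h, 1803 to 3476 from 6 to 12 h and 583 to 2789 from 12 to 24 h.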

Other observations

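Ratios of counts within a library use no scaling between libraries. The ratio of MMP14 to TIMP1 counts started from 0.684 ± 0.0757 (SD, n = 3) and was 0.548 ± 0.0457 after 3 h, 1.31 ± 0.176 after 6 h and 1.38 ± 0.18 after 24 h. The lowest library at 6 h had 1.11 and the highest at 0 h 0.732. The ratio of MMP1 to TIMP1 went from 0.0902 ± 0.0116 at 0 h to 0.246 ± 0.0183 at 24 h. MMP14 to TIMP2 started from 0.899 ± 0.0354 and had 1.31 ± 0.0208 after 6 h and 1.08 ± 0.0346 after 24 h. The TIMP1 level went with the length slope of the libraries (r = -0.978), and the other members were not compared with that slope. MMP1, MMP14 and TIMP2 had r of -0.901, -0.862 and -0.786 with TIMP1. These ratios are not corrected for transcript length and do not measure how far an enzyme is blocked.

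The ratio of urokinase to its receptor, PLAU to PLAUR counts, started from 3.77 ± 0.0666 and was 5.51 ± 0.224 after 3 h and 4.2 ± 0.0557 after 24 h. Between the activators, PLAU to PLAT was at most 1.21 at 0 h, was 2.12 ± 0.0462 after 3 h and was back at 1.19 ± 0.0265 after 24 h.

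MMP1 and MMP3 lie in a cluster of metalloproteinase genes on chromosome 11. Over the 17 libraries MMP1 had 17410 counts there, MMP13 had 92, MMP7 33, MMP3 31, MMP10 29, MMP8 9 and MMP12 3. MMP20 and MMP27 had 0.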
